A study of Mus musculus with 12 samples.

Results

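Cathepsins are proteases that do much of the protein breakdown inside lysosomes, and 10 of their genes (Ctsa, Ctsb, Ctsc, Ctsd, Ctsf, Ctsh, Ctsk, Ctsl, Ctss and Ctsz) were followed across the RNA-seq libraries of mouse embryonic fibroblasts (MEFs). The members were chosen by name, and all 10 were among the 24421 genes of the count table. There were 12 libraries, 3 in each of 4 groups: Null MEFs, the label of the cells that the methods call wild type, and MEFs with CRISPR inactivation of both TFEB and TFE3 (DKO), each untreated or exposed to 100 µM etoposide for 8 h. Etoposide poisons topoisomerase II and leaves DNA breaks, and the comparison asks how the transcriptional answer to that damage differs when these transcription factors are missing. The labels describe the controls as untreated, whereas the methods describe DMSO. The MEFs carried SV40 immortalization, which the study notes can affect p53 stability, and nothing in the sources used here describes more than 1 line per genotype, so genotype and line cannot be told apart. The libraries held 45577023 to 104120871 counts on genes. The labels give no origin of the replicates beyond a number, so the p-values measure the spread between these libraries, which may be technical.

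Most cathepsins are cysteine proteases of the papain family (Ctsb, Ctsc, Ctsf, Ctsh, Ctsk, Ctsl, Ctss and Ctsz), while Ctsd is an aspartic protease and Ctsa a serine carboxypeptidase. They are made as inactive precursors, tagged with mannose 6-phosphate in the Golgi, carried to the lysosome and activated there by removal of a propeptide. Cystatins and stefins hold stray cysteine cathepsins in check. TFEB and TFE3 belong to the MiT/TFE family, whose members bind E-box sequences near many lysosomal genes and are held in the cytosol of fed cells by mTORC1.

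The targeted genes were examined first. Tfeb was measured at 38.9, 39.2 and 42.1 CPM (counts scaled to 1000000 per TMM-adjusted library) in the untreated Null libraries and at 4.6, 6.09 and 4.68 CPM in the untreated DKO libraries. After etoposide it stood at 11.4, 10.2 and 10.4 CPM in Null MEFs and at 1.92, 1.61 and 2.2 CPM in DKO MEFs. Every DKO library lay below every Null library of the same treatment. Tfe3 RNA was still present in DKO MEFs: untreated it stood at 92.7 ± 1.61 CPM, with 113 ± 2.83 CPM in Null MEFs, and after etoposide at 68.5 ± 4.37 and 68.7 ± 0.778 CPM (SD, n = 3 each). RNA level does not show whether protein is made from an edited gene. Of 10 fibroblast markers, Vim, Fn1, Col1a1 and Col1a2 had group means from 524.8 CPM (Col1a2, treated Null) to 2696 CPM (Vim, untreated DKO), whereas Thy1 was at 1 to 4 counts in the untreated DKO libraries, and Dcn (0.658 to 2.72 CPM) and Lum (0.136 to 0.837 CPM) were low in each group. Pdgfra, Pdgfrb and Col3a1 were higher in untreated DKO than in untreated Null MEFs, at 197 and 20.9, 103 and 54.7, and 1231 and 194 CPM. The summed level of the fibroblast list was 6790, 6788 and 6892 CPM in untreated Null and 3849, 3730 and 3724 CPM in treated Null libraries, and 10980, 11580 and 11020 CPM in untreated DKO and 4958, 5035 and 4692 CPM in treated DKO libraries. The sum was lower after etoposide in both genotypes, as were the means of 9 of the 10 genes in each. It was higher in DKO MEFs under either treatment, but Thy1 was lower in DKO MEFs under both (2.12 and 0.129 CPM after etoposide) and Vim was lower after etoposide (1631 and 801 CPM in Null and DKO MEFs). The part of these markers in the cathepsin values was not tested. With bulk RNA, fewer cells of a kind and less RNA per cell cannot be told apart.

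Ranked by CPM per kilobase of summed exons, a scale that allows genes to be compared, the order in untreated Null MEFs was Ctsd, Ctsz, Ctsb, Ctsl, Ctsa, Ctsc, Ctsf, Ctsh, Ctsk and Ctss. Ctsd stood at 166.9 ± 5.4 CPM per kb and held 47.7% of the summed level of the 10 genes. Ctsz followed at 69.2 ± 0.206, Ctsb at 60.3 ± 1.79, Ctsl at 28.4 ± 0.209 and Ctsa at 18.7 ± 0.904 CPM per kb, and no neighbours in this group overlapped between libraries (SD, n = 3 each). Ctsz and Ctsb exchanged places when the longest transcript replaced summed exons. Ctsc reached 5.1 ± 0.279 CPM per kb (SD, n = 3), and the 4 genes after it were each below 1 CPM per kb. The longest transcript was tried in untreated Null MEFs only. By summed exons the 5 leading genes kept their order in all 4 groups, and the changes came further down: Ctsc stood at place 6 in untreated and 7 in treated Null MEFs and at places 9 and 10 in DKO MEFs, and Ctsf rose to place 6 after etoposide in both genotypes. Untreated DKO libraries of Ctsk and Ctsc overlapped, as did those of Ctsf and Ctsh, of Ctsk and Ctss and of Ctss and Ctsc in DKO MEFs after etoposide. In Null MEFs after etoposide Ctsd held 61.4% of the summed level, against 49.9% in treated DKO MEFs. The 10 genes took 0.112 ± 0.00278% of all counts on genes in untreated Null MEFs, 0.131 ± 0.000651% in untreated DKO MEFs, 0.184 ± 0.0068% in treated Null MEFs and 0.159 ± 0.00392% in treated DKO MEFs (SD, n = 3 each).

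**Figure D1:**
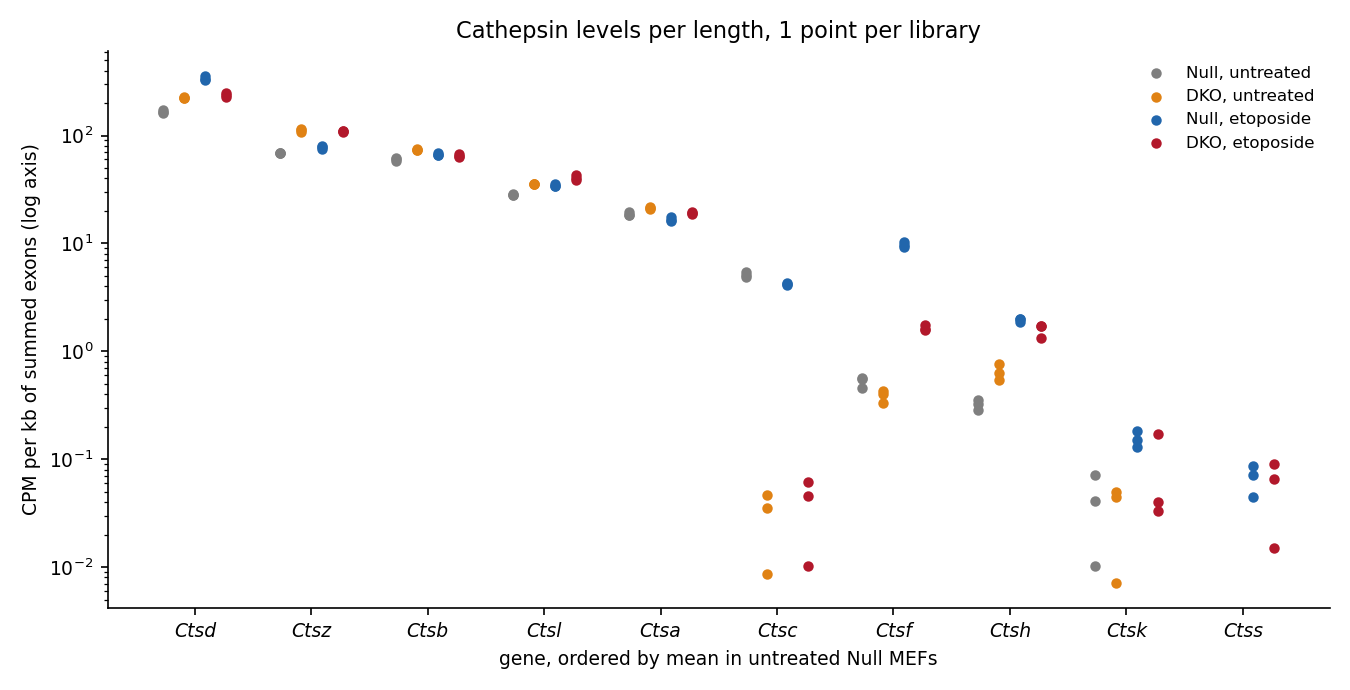
Level of each cathepsin on a log axis, in CPM per kilobase of summed exons, with 1 point per library and colors for the 4 groups; values of 0 (Ctss untreated) are not drawn. Ctsd leads in every group at 166.9 to 337.2 CPM per kb, and the DKO libraries of Ctsc lie between 0.00867 and 0.0611.

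Of the 10 cathepsins, 9 passed the expression filter and were tested. Ctss did not pass. Ctsk passed on the 3 etoposide-treated Null libraries and 1 treated DKO library, so it was tested through its level in treated libraries, and it is left out of the counts and tests below. That leaves 8 cathepsins, each at the filter's cutoff in at least 1 untreated library. In Null MEFs etoposide raised 6 of the 8 (Ctsb, Ctsd, Ctsf, Ctsh, Ctsl and Ctsz) and lowered 1 (Ctsa), where 41.7% of all 15220 genes tested were called higher and 36.8% lower. In DKO MEFs it raised 3 (Ctsf, Ctsh and Ctsl) and lowered 2 (Ctsa and Ctsb), against 44% and 31.3% of all genes. With library size alone these decreases reversed direction and the counts were 6 higher and 0 lower in Null MEFs (50.3 and 28.6% of all genes) and 7 and 0 in DKO MEFs (61.4 and 19.5%), so the smaller number raised in DKO MEFs depended on the scaling. Untreated DKO MEFs had 6 of the 8 higher than Null MEFs and 2 lower, against 33.4% and 34.1% of all genes. On library size alone 5 were higher (without Ctsa) and 2 lower, against 26.3% and 42.5% of all genes. After etoposide 3 were higher and 4 lower in DKO MEFs, against 36.9% and 35.2% of all genes. Among the 13798 genes that, like the 8, reached the cutoff in an untreated library, etoposide raised 36.3% and lowered 40.6% in Null MEFs, and raised 39.9% and lowered 34.5% in DKO MEFs. Of the same genes 36.5% were higher and 36.5% lower in untreated DKO than Null MEFs, and 40.4 and 34.2% after etoposide. With library size alone etoposide raised 45.7% and lowered 31.5% of them in Null MEFs, and 58.6 and 21.6% in DKO MEFs. Calls are at an adjusted p below 0.05 by the quasi-likelihood test of edgeR with Benjamini-Hochberg adjustment. Most of the genes tested were called with etoposide in each genotype, so the number of cathepsins called carries little by itself, and the sizes of the differences are given below gene by gene.

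**Figure D2:**
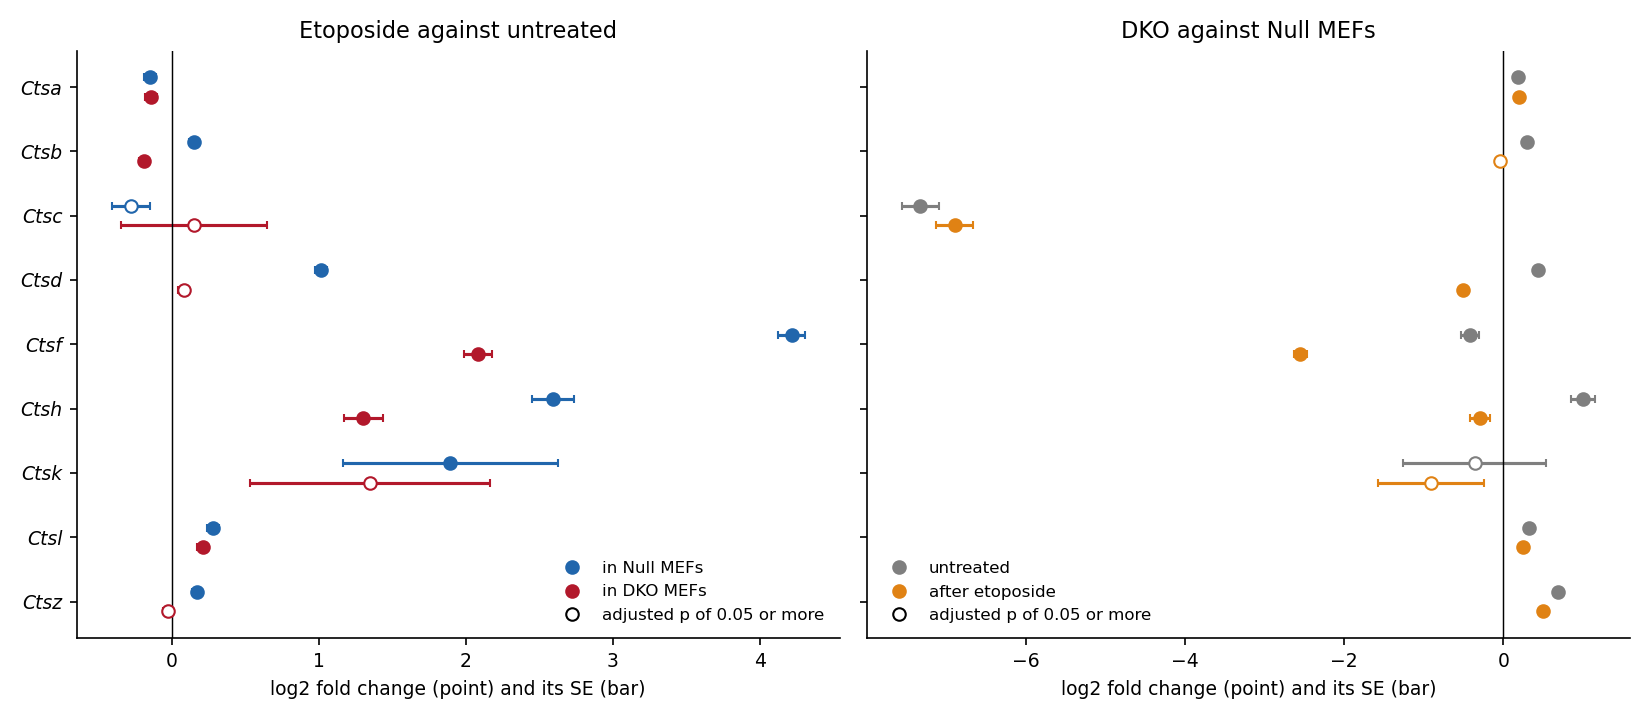
Log2 fold change of the 9 tested cathepsins (point) with its standard error (bar), for etoposide against untreated (left) and DKO against Null MEFs (right); open points have an adjusted p of 0.05 or more, and Ctsk, which passed the filter through treated libraries, is not read as a test. Ctsf, Ctsh and Ctsd rose by 4.22, 2.59 and 1.01 in Null MEFs, and Ctsc stands at -7.33 and -6.89 in DKO MEFs.

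**Figure D3:**
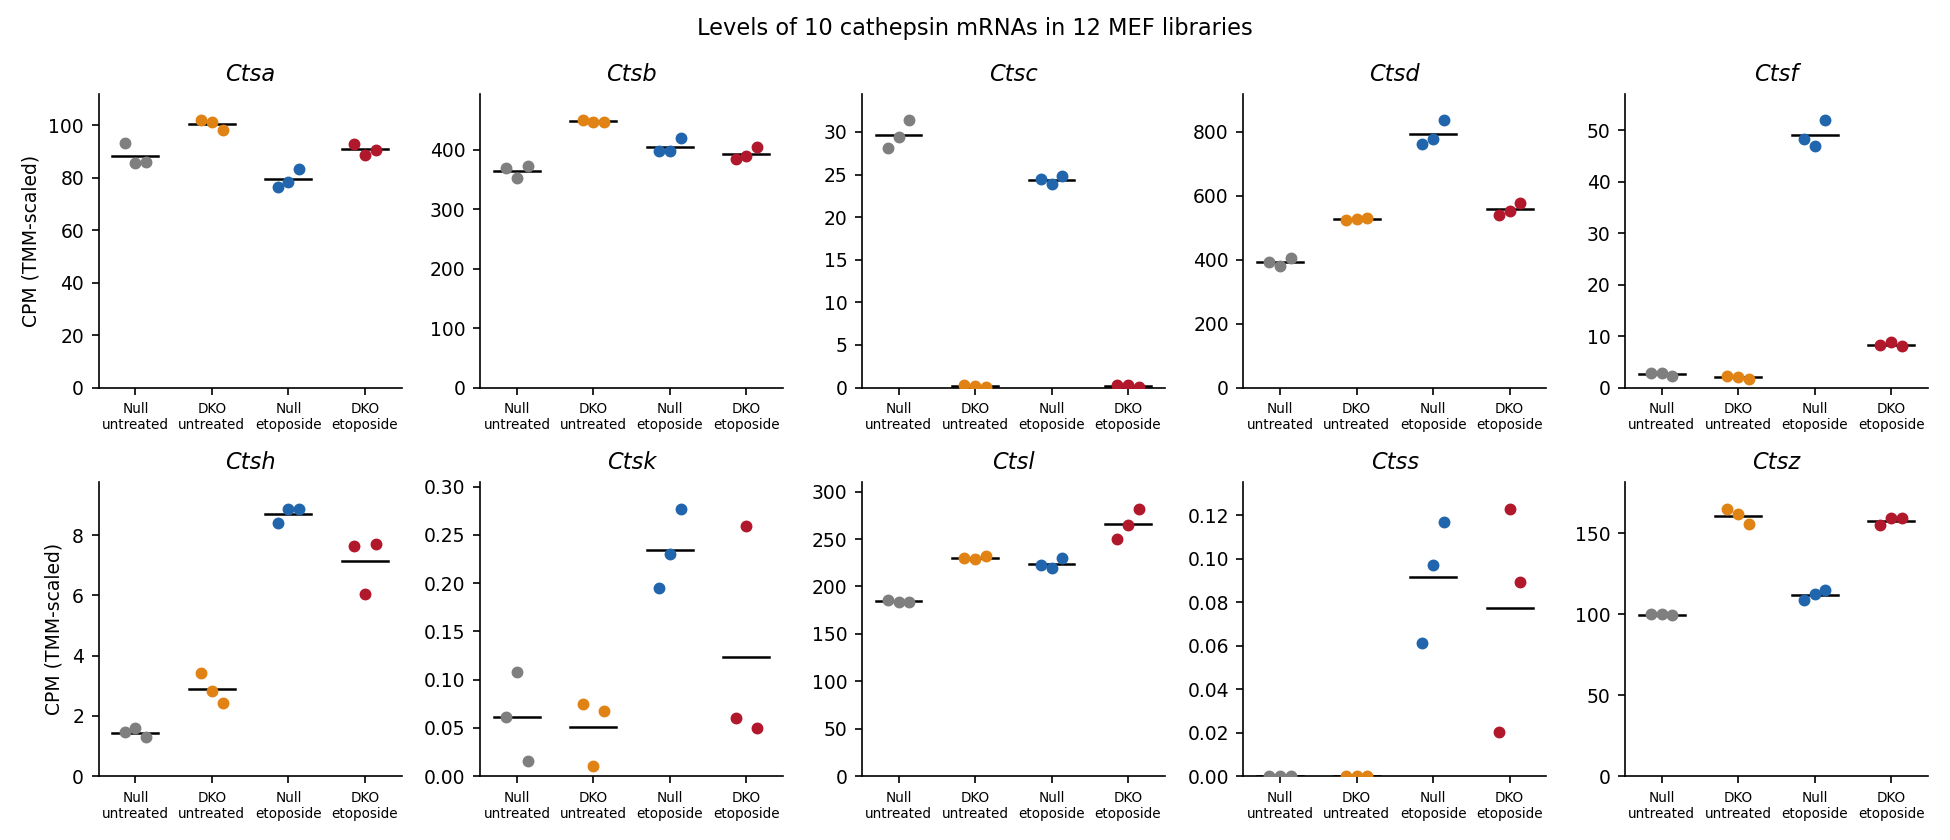
Level of each of the 10 cathepsins in CPM on a linear axis from 0, with 1 point per library and a line at the mean of the 3 libraries of a group. Replicates lie close together for genes above 1 CPM, and Ctsk and Ctss stay below 0.3 CPM throughout.

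Ctsd, the main aspartic protease of the lysosome (chromosome 7, 142375911 to 142388038), was the cathepsin with the highest level per length. Its level was 392, 380 and 405.4 CPM in untreated Null MEFs and 762.9, 778.7 and 836.7 CPM after etoposide. The treated libraries were all above the untreated ones. In DKO MEFs it was 525.1, 528.3 and 532.1 CPM untreated and 540.4, 553.7 and 579.2 CPM after etoposide, a smaller step although the libraries again did not overlap. Etoposide thus changed Ctsd by 1.01 ± 0.038 (log2 fold change ± SE) in Null MEFs and by 0.078 ± 0.038 in DKO MEFs, the second at an adjusted p of 0.0728 by the edgeR quasi-likelihood test, Benjamini-Hochberg. With library size alone as the scale that DKO change was 0.35 and was called, and it was also called with a filter at a mean of 1 CPM (0.11). The interaction was -0.94 ± 0.054, with an adjusted p of 3.22e-10 by the edgeR quasi-likelihood test, Benjamini-Hochberg. Untreated DKO MEFs had more Ctsd than Null MEFs (log2 fold change 0.43 ± 0.038 SE) and treated DKO MEFs had less (-0.51 ± 0.038 SE). Of the summed exons of Ctsd, 34.4% lie under another same-strand gene model, Gm49369, which has no row in the count table.

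The promoter windows of Ctsd and Ctsf, which rose with etoposide, of Ctsa, with the most E-box letters, and of Ctsc, the gene most reduced in DKO MEFs, are shown from RefSeq on GRCm38.p6, from 250 bases before to 50 after the annotated start. Capitals mark CACGTG and TCACGTGA, the second of which contains the first and both of which read the same on either strand.
Ctsd, chr7:142387778-142388077, strand -: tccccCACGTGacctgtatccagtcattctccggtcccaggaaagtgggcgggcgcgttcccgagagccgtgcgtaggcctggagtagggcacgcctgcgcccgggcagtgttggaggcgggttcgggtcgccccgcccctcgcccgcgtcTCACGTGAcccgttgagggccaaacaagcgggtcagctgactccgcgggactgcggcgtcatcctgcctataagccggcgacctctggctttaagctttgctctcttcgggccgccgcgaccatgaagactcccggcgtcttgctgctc
Ctsf, chr19:4854915-4855214, strand +: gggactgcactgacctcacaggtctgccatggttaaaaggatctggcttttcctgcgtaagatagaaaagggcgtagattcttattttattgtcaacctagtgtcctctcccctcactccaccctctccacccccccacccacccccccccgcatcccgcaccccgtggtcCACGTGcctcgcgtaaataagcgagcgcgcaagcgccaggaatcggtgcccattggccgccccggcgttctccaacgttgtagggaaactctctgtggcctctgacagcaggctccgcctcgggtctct
Ctsa, second window, chr2:164833523-164833822, strand +: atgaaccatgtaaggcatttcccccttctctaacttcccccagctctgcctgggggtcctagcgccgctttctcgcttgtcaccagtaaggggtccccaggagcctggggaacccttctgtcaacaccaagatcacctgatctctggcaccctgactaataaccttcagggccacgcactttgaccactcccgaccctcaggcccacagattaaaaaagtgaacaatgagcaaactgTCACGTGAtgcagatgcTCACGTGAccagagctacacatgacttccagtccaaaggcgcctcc
Ctsc, chr7:88277835-88278134, strand +: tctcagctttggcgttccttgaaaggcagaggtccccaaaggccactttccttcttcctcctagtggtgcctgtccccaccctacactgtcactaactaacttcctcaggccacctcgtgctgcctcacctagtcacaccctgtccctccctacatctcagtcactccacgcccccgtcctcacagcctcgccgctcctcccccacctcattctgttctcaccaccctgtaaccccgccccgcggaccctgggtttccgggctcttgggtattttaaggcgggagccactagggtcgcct
RefSeq windows were present for 8 of the 10 cathepsins, 9 windows in all, Ctsa having 2. CACGTG was found in 4 of the 9, in Ctsa, Ctsd, Ctsf and Ctsl, against 7.15% of all 32851 windows of this length. TCACGTGA was found in 2 of the 9 (Ctsa and Ctsd), against 0.974%. TCATGTGA, read on both strands, was found in 1 of the 9, in Ctss, against 0.986%. In Ctsa the 8-base form begins at -13 and at 5 relative to the start, in Ctsd at -99, and in Ctsf and Ctsl CACGTG begins at -79 and at -236. These letters are a description of the windows and not of binding. Ctsb and Ctsh were not among the windows used here.

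**Figure D4:**
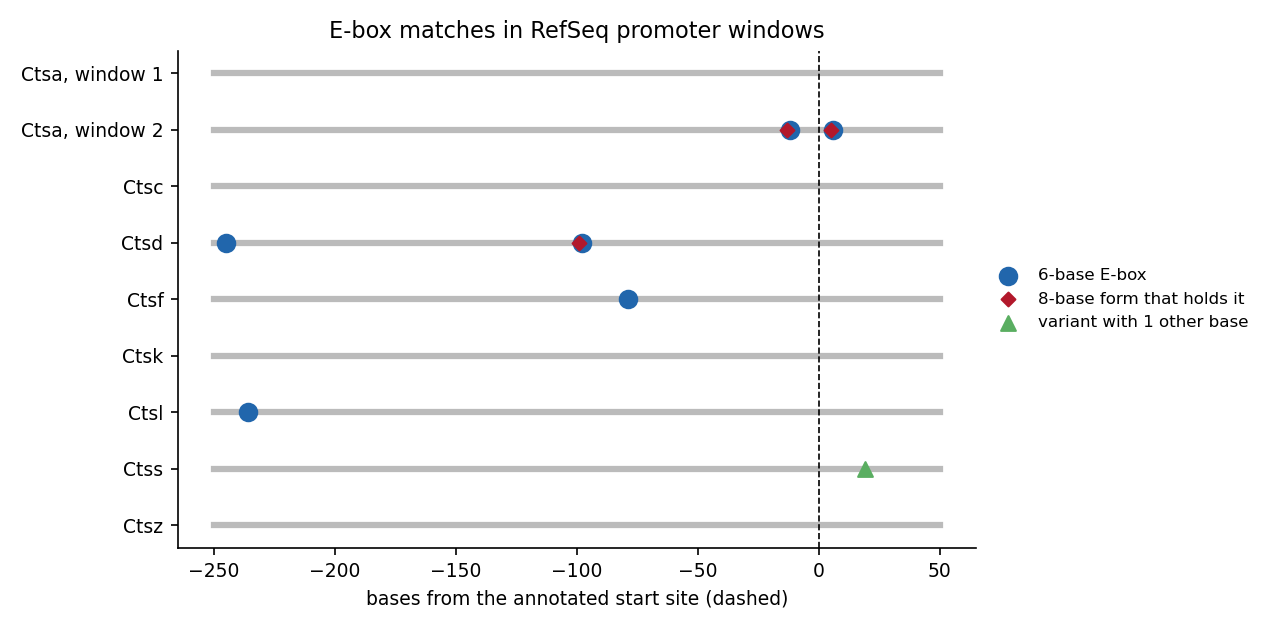
Positions of E-box letters in bases from the annotated start site (dashed line) in the 9 cathepsin windows (gray bars). Circles are the 6-base form, diamonds the 8-base form that contains it and the triangle the variant; the Ctsa window with 2 matches and the Ctsd window hold the 8-base form.

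Ctsf and Ctsh, a cysteine protease and a cysteine aminopeptidase, had the largest etoposide rises in Null MEFs among the 8 cathepsins counted above. Ctsf (chromosome 19, 4855130 to 4860918) was at 2.77, 2.83 and 2.29 CPM in untreated Null MEFs and at 48.2, 46.9 and 52 CPM after etoposide. In DKO MEFs it was at 2.15, 2.04 and 1.68 CPM untreated and at 8.19, 8.85 and 8.01 CPM after etoposide. All treated libraries were above all untreated ones, and treated DKO MEFs stayed far below treated Null MEFs. Ctsf rose by 4.22 ± 0.09 in Null MEFs and by 2.08 ± 0.097 in DKO MEFs (log2 fold change ± SE), 18.6-fold and 4.24-fold. DKO against Null MEFs gave -0.42 ± 0.11 untreated and -2.55 ± 0.079 after etoposide. Ctsh (chromosome 9, 90054152 to 90076089) was at 1.45, 1.58 and 1.3 CPM in untreated Null MEFs and at 8.4, 8.87 and 8.88 CPM after etoposide. In DKO MEFs it was at 3.43, 2.82 and 2.42 CPM untreated and at 7.65, 6.04 and 7.72 CPM after etoposide. Every treated library was above every untreated one of its genotype, and untreated DKO libraries were above untreated Null libraries. Ctsh rose by 2.59 ± 0.14 in Null MEFs and by 1.3 ± 0.13 in DKO MEFs (log2 fold change ± SE). The gap between genotypes was 1 ± 0.15 untreated and -0.29 ± 0.12 after etoposide, the latter at an adjusted p of 0.0477 by the edgeR quasi-likelihood test, Benjamini-Hochberg, and this call was lost under limma-trend (adjusted p = 0.0645 by limma with Benjamini-Hochberg adjustment), without any single treated Null library, without untreated Null replicate 2 (log2 fold change -0.28) and without treated DKO replicate 2 (-0.20).

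Ctsc, which encodes dipeptidyl peptidase 1, the activator of granule serine proteases, was the member most changed by genotype. Its level (chromosome 7, 88278085 to 88310888) was 28.2, 29.4 and 31.4 CPM in untreated Null MEFs and 24.5, 23.9 and 24.8 CPM after etoposide. In DKO MEFs it was at 18, 19 and 3 counts untreated and at 13, 26 and 6 counts after etoposide, or 0.271, 0.206 and 0.0503 CPM and 0.263, 0.355 and 0.0596 CPM. The genotypes did not overlap in any library. DKO against Null MEFs gave a log2 fold change of -7.33 ± 0.23 untreated and -6.89 ± 0.23 after etoposide (SE), with adjusted p-values of 4.64e-14 and 1.04e-13 by the edgeR quasi-likelihood test, Benjamini-Hochberg. In Null MEFs etoposide gave -0.28 ± 0.13 (SE), which was not called at an adjusted p of 0.0595 by the edgeR quasi-likelihood test, Benjamini-Hochberg, although the treated libraries all lay below the untreated ones. It was called when only the libraries of the 2 groups were fitted (-0.28), with no filter (-0.31) and without untreated DKO replicate 1 (-0.29) or 3 (-0.29) or treated DKO replicate 2 (-0.29) or 3 (-0.28). The interaction, 0.43 ± 0.51 (SE), was not called in the full set and was 1.06 and called without treated DKO replicate 3. Genes within 1000000 bases of Ctsc were looked at after its values were seen. Untreated, Tmem135 was at 26.6 ± 1.45 CPM in Null and 26.3 ± 0.877 CPM in DKO MEFs, Nox4 at 17 ± 0.279 and 31.3 ± 0.968 CPM and Rab38 at 2.1 ± 0.171 and 1.56 ± 0.387 CPM (SD, n = 3 each). After etoposide Tmem135 was at 13.4 ± 0.827 in Null and 19.6 ± 0.676 CPM in DKO MEFs, Nox4 at 12.9 ± 0.802 and 20 ± 0.869 CPM and Rab38 at 2.83 ± 0.188 and 2.96 ± 0.302 CPM (SD, n = 3 each). Tyr and Grm5 had 0 to 1 counts in untreated libraries, and after etoposide 0 to 4 and 2 to 19. Because these genes were chosen after the values were seen, no p is given for them. Whether the loss belongs to the editing or to the line was not tested.

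Ctsb, Ctsl, Ctsz and Ctsa, the abundant remainder, moved by less than 1.7-fold in every comparison. Ctsb, an endo- and exopeptidase (chromosome 14, 63122462 to 63145923), was at 369.8, 352.5 and 372.3 CPM in untreated Null MEFs, 398.1, 398.5 and 419.6 CPM in treated Null MEFs, 449.9, 447.3 and 447.3 CPM in untreated DKO MEFs and 384.5, 390.4 and 404.7 CPM in treated DKO MEFs. Etoposide moved it in opposite directions, by 0.15 ± 0.033 in Null MEFs and -0.19 ± 0.033 in DKO MEFs (log2 fold change ± SE), but on library size alone the DKO change was 0.085 and the signs no longer differed, while the interaction, -0.34 ± 0.047 SE, was called on either scale. After etoposide DKO against Null MEFs was -0.044 and not called, but was called lower with DESeq2, with its size factors in edgeR and with the stricter filter (-0.10, -0.10 and -0.11). Ctsl, an endopeptidase (chromosome 13, 64359337 to 64370890), rose by 0.28 ± 0.039 in Null and 0.21 ± 0.039 in DKO MEFs (log2 fold change ± SE), and was higher in DKO MEFs by 0.32 untreated and 0.24 after etoposide. Its libraries ran from 183.7 to 186.1 CPM in untreated Null MEFs and from 220 to 229.6 CPM in treated Null MEFs. In DKO MEFs they ran from 228.8 to 231.7 CPM untreated and from 249.8 to 282 CPM after etoposide. Its interaction of -0.073 was not called, but was called by DESeq2 (-0.14), with DESeq2's size factors in edgeR (-0.14) and without treated DKO replicate 3 (-0.13). Exons on the other strand lie over 26.8% of the summed exons of Ctsl (Gm47123) and 12.8% of those of Ctsb (Fdft1), and Gm49230 lies over 6.1% of those of Ctsl on the same strand.

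Ctsz, a carboxypeptidase (chromosome 2, 174427493 to 174439039), was the abundant member with the largest genotype gap, at 100, 99.8 and 99.5 CPM in untreated Null MEFs and 165.1, 161.6 and 155.7 CPM in untreated DKO MEFs. After etoposide it was at 108.8, 112.7 and 114.8 CPM in Null MEFs and 154.8, 159.3 and 159.1 CPM in DKO MEFs. DKO MEFs were above Null MEFs in every library, by 0.69 ± 0.035 untreated and 0.49 ± 0.035 after etoposide (log2 fold change ± SE). Etoposide raised it by 0.17 in Null MEFs and gave -0.028 in DKO MEFs, which was not called and was 0.25 on library size alone. Ctsa, which also protects beta-galactosidase and neuraminidase in a complex (chromosome 2, 164832873 to 164841032), ran from 85.6 to 93.2 CPM in untreated Null, 76.7 to 83.4 CPM in treated Null, 98.1 to 102 CPM in untreated DKO and 88.8 to 93 CPM in treated DKO MEFs. It was lower after etoposide by -0.15 in Null and -0.15 in DKO MEFs (log2 fold change), but by library size alone these were 0.015 and 0.13, the latter called higher. It was higher in DKO MEFs by 0.19 untreated and 0.19 after etoposide, and the untreated call was lost on library size alone (0.065). With the stricter filter the change in Null MEFs was -0.067 and not called. Its exons overlap those of Pltp and Neurl2 on the other strand by 10.5 and 6.9% of their length, and the strand setting of the counting is not given in the sources used here.

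Ctsk and Ctss, the cathepsins of osteoclasts and of antigen-presenting cells, were near the floor. Ctsk (chromosome 3, 95499256 to 95509362) had 5, 7 and 1 counts in untreated Null MEFs, 5, 1 and 4 in untreated DKO MEFs, 16, 19 and 19 in treated Null MEFs and 3, 19 and 5 in treated DKO MEFs. Treated Null libraries were above untreated ones and the DKO groups overlapped. Its log2 fold changes, 1.89 in Null and 1.35 in DKO MEFs, are given as a description. Ctss (chromosome 3, 95526786 to 95556403) had 0 counts in all 6 untreated libraries, where 3 counts would be 0.0326 to 0.0503 CPM. After etoposide it had 5, 8 and 8 counts in Null and 1, 9 and 9 in DKO MEFs. Such a shift was not particular to it: of 6865 genes at 0 in all 6 untreated libraries, 571 (8.32%) had 1 or more counts in all 6 treated libraries, and genes over 3 counts numbered 13435 to 14379 in untreated and 15382 to 17100 in treated libraries. The summed level of 10 macrophage markers was 2.04 to 4.56 CPM in untreated and 7.26 to 15.7 CPM in treated libraries, carried by Cd68 (1.44 and 12 CPM in Null MEFs) and Fcgr3 (1.75 and 3.7 CPM in DKO MEFs). The treated mean was above the untreated one for 9 of the 10 in Null MEFs (not Mpeg1) and for 8 in DKO MEFs (not Mpeg1 or Csf1r), among them Ptprc (0.00819 and 0.366 CPM in Null, 0.01 and 0.278 CPM in DKO MEFs), Itgam (0.0041 and 0.347, 0.0168 and 0.39 CPM) and Lyz2 (0.248 and 0.835, 0 and 0.112 CPM). Adgre1 and Tyrobp were at 0 in every untreated library, and Tyrobp had at most 2 counts after etoposide. The summed level of 8 osteoclast markers, led by Itgb3 in each library, was 12 to 13.2 CPM in untreated and 16.2 to 18.3 CPM in treated Null libraries, and 6.81 to 9.19 CPM in untreated and 4.53 to 5.65 CPM in treated DKO libraries. Treated means were above untreated ones for 7 of the 8 in Null MEFs (not Mmp9). In DKO MEFs the same held for 7 (not Itgb3, 8.155 and 4.233 CPM). Acp5 went from 0.0246 to 0.338 CPM in Null and from 0.00362 to 0.157 CPM in DKO MEFs, and Calcr, Dcstamp and Atp6v0d2 were at 0 in every untreated library. Endothelial markers went from 0.0543 to 0.221 summed CPM untreated to 0.913 to 2.97 CPM treated over 5 genes, led by Tek or Pecam1 except in untreated DKO replicate 3 (Kdr), with Emcn at 0 in every untreated library. Epithelial markers, over 5 genes, summed to 2.32 to 2.95 CPM in untreated and 2.53 to 2.83 CPM in treated Null libraries. In DKO MEFs they summed to 5.17 to 5.94 CPM untreated and 2.07 to 2.53 CPM treated. Krt8 led in untreated and Cdh1 in treated libraries. Treated means were higher for 3 of the 5 in Null and 4 in DKO MEFs, where Krt8 fell from 4.58 to 0.513 CPM. The part of these lists in the Ctsk and Ctss counts was not tested.

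Etoposide moved 5 of the 8 cathepsins less, or in the other direction, in DKO than in Null MEFs by the interaction test: Ctsb, Ctsd, Ctsf, Ctsh and Ctsz. The interaction was below 0 for 24.7% of all genes and above 0 for 29.9%. Among the 13798 genes at the cutoff in an untreated library these shares were 26.4 and 32.8%, and 21.7 and 41.6% on library size alone. No cathepsin was called above 0 by edgeR, by DESeq2 or by limma. By edgeR the count above 0 was also 0 at an unadjusted p under 0.05. Without treated DKO replicate 3 the count above 0 was 1 (Ctsc), whereas the shares of all genes given here are for all 12 libraries. On library size alone Ctsz was not called (-0.0895), leaving 4 of the 8, against 20.4% of all genes below 0 and 38% above. With DESeq2, 6 of the 8 were below 0, against 28.7% of all genes below and 25.9% above, and with limma 5, against 27.4 and 29.6%.

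**Figure D5:**
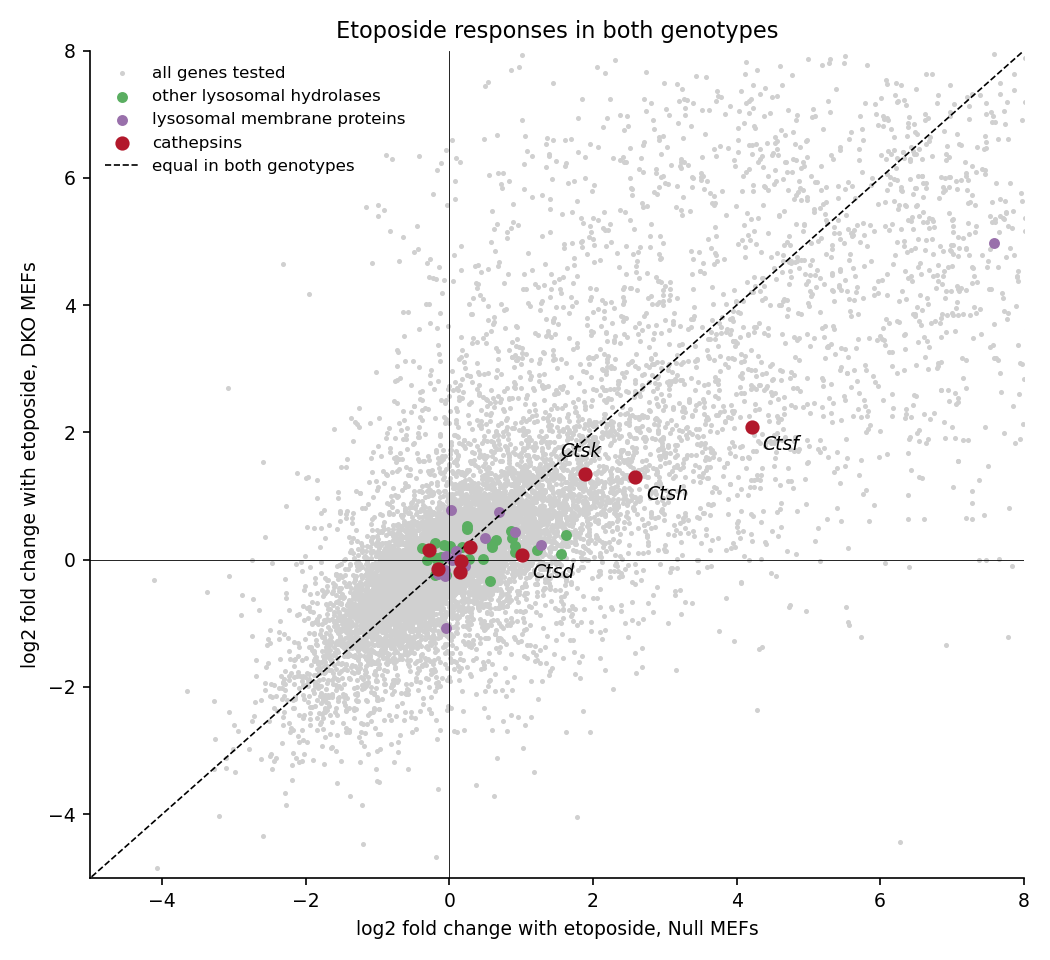
Log2 fold change with etoposide in Null (horizontal) and DKO MEFs (vertical) for all genes tested (gray), the other lysosomal hydrolases, the lysosomal membrane proteins and the cathepsins; the dashed line is equality and 132 genes lie outside the axes. Ctsd, Ctsf and Ctsh lie below the line, at 1.01, 4.22 and 2.59 in Null against 0.078, 2.08 and 1.3 in DKO MEFs. Ctsk among the cathepsins and Laptm5 among the membrane proteins passed the filter through treated libraries, and their fold changes are not read as tests.

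The genes that act on cathepsins or share their organelle were read from lists chosen by function. Of 12 cathepsin inhibitors 5 were tested, and etoposide raised 3 and lowered 1 in Null MEFs and raised 2 and lowered 2 in DKO MEFs, against 41.7 and 36.8% and 44 and 31.3% of all genes. Cst3, cystatin C, the main secreted inhibitor, was 4.36-fold higher in untreated DKO MEFs (558.2 ± 12.8 CPM) than in untreated Null MEFs (128.2 ± 2.95 CPM; SD, n = 3 each), and 2.39-fold higher after etoposide. Cst6 rose 2.75-fold in Null and 2.64-fold in DKO MEFs, Serpina3g fell 8.66-fold and 8.65-fold, and Ctla2b, at 5 to 31 counts, rose 2.57-fold in Null MEFs. Of 13 other cathepsin genes 3 passed the filter. Ctso was called higher and Ctsw lower with etoposide in each genotype, the latter not in DKO MEFs on library size alone or with the replicate block. Ctse passed through treated libraries and is given by its counts, at 0 to 2 counts untreated, at 5 to 15 in treated Null and at 0 to 25 in treated DKO MEFs. Of 16 genes for maturation and sorting, with the glycosidases Glb1 and Neu1 of the complex with Ctsa counted among them, etoposide raised 3 and lowered 8 in Null MEFs and raised 5 and lowered 7 in DKO MEFs, against 41.7 and 36.8% and 44 and 31.3% of all genes. On library size alone these were 6 and 7 in Null MEFs, where 50.3 and 28.6% of all genes were called, and 10 and 0 in DKO MEFs, where 61.4 and 19.5% were. DKO against Null MEFs gave 9 higher and 5 lower untreated (33.4 and 34.1% of all genes) and 12 and 3 after etoposide (36.9 and 35.2%). On library size alone these were 8 and 6 (26.3 and 42.5% of all genes) and 12 and 3 (35.8 and 36%). The interaction was above 0 for 8 and below 0 for 2, against 29.9 and 24.7% of all genes, where that of the cathepsins was above 0 for none and below 0 for 5. Without Glb1 and Neu1 the counts over the other 14 were 2 and 8, 4 and 7, 7 and 5, 10 and 3, and 8 and 2 in the same order of comparisons. Sort1, a sorting receptor for lysosomal enzymes, was 5.59-fold lower in untreated DKO MEFs and 2.36-fold lower after etoposide, and rose 2.04-fold with etoposide in DKO MEFs. Gnptab, which makes the mannose 6-phosphate tag, was 2.02-fold higher in DKO MEFs after etoposide.

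Of 29 other lysosomal hydrolases, 17 rose and 6 fell with etoposide in Null MEFs and 17 rose and 3 fell in DKO MEFs, against 41.7 and 36.8% and 44 and 31.3% of all genes. Library size alone gave 20 and 2 in Null MEFs (50.3 and 28.6% of all genes) and 26 and 0 in DKO MEFs (61.4 and 19.5%). Fuca1 rose 3.09-fold, Man2b1 2.95-fold and Tpp1 2.32-fold in Null MEFs, and their interactions were -1.24, -1.47 and -1.07. DKO against Null MEFs gave 15 higher and 7 lower untreated, against 33.4 and 34.1% of all genes, and 15 and 11 after etoposide, against 36.9 and 35.2%. The untreated counts were 14 and 12 on library size alone, against 26.3 and 42.5%. Manba was 4.44-fold, Idua 3.92-fold and Naglu 2.03-fold higher in untreated DKO MEFs, the first and second also after etoposide (3.1-fold and 2.99-fold), and Fuca1 was 2.27-fold lower after etoposide. The interaction was above 0 for 9 and below 0 for 12, against 29.9 and 24.7% of all genes. Of 14 lysosomal membrane proteins, Laptm5 passed the filter through treated libraries and is left out of the counts. Of the other 13, 6 rose and 1 fell with etoposide in Null MEFs and 6 rose and 5 fell in DKO MEFs, against 41.7 and 36.8% and 44 and 31.3% of all genes. On library size alone these were 9 and 0 and 9 and 1, against 50.3 and 28.6% and 61.4 and 19.5%. DKO against Null MEFs gave 8 higher and 4 lower untreated (33.4 and 34.1% of all genes) and 7 and 2 after etoposide (36.9 and 35.2%). On library size alone these were 6 and 5 (26.3 and 42.5% of all genes) and 6 and 2 (35.8 and 36%). The interaction was above 0 for 1 and below 0 for 5, against 29.9 and 24.7%, and for 4 and 4 on library size alone, against 38 and 20.4%. Among the 13798 genes at the cutoff in an untreated library, as the 13 were, these shares were 32.8 and 26.4%, and 41.6 and 21.7%. Scarb2, the receptor that carries glucocerebrosidase, rose 2.43-fold in Null MEFs and was 2.31-fold higher in untreated DKO MEFs, with an interaction of -1.05. Lamp2 was 2.35-fold higher in untreated and 2.06-fold higher in treated DKO MEFs. Cln3 was 2.29-fold higher in untreated DKO MEFs and fell 2.11-fold there with etoposide, with an interaction of -1.03. Laptm5 went from 0 to 1 counts in every untreated library to 127 to 199 in treated Null and 5 to 22 in treated DKO MEFs. In the MiT/TFE list of 4 genes, 3 were tested. Mitf rose 2.55-fold with etoposide in Null MEFs, fell 3.1-fold in DKO MEFs and was 4.86-fold higher in untreated DKO MEFs, and Tfeb fell 3.76-fold and 2.67-fold with etoposide. All these calls are by the quasi-likelihood test of edgeR with Benjamini-Hochberg adjustment.

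The genes with the pattern nearest to a member were found for the 5 tested cathepsins whose 4 group means of log2 CPM spanned at least 1, by the root-mean-square difference of the centred means over those 4 groups. For Ctsc they were Cd34 (0.134), Cyba (0.234) and Armcx4 (0.241). Cd34, a sialomucin of stromal and blood precursor cells, stood at 270.3 CPM in untreated Null and 1.92 CPM in untreated DKO MEFs. For Ctsd they were BC022687 (0.0415), Efnb1 (0.0428) and Krit1 (0.0438), all differing by less than 0.05. For Ctsf they were Slc37a2 (0.171), Ccdc88b (0.233) and Dffb (0.265), and Slc37a2 went from 1.98 to 50.9 CPM in Null and from 1.75 to 6.76 CPM in DKO MEFs. For Ctsh they were Hspa1b (0.157), Bcl7a (0.162) and Pml (0.173). For Ctsk they were Irs2 (0.0393), Siva1 (0.0521) and Slc27a3 (0.0664). Ctsk is among the 5 tested only because it passed the filter through treated libraries. Its match follows that treated level and rests on the 1 to 19 counts of Ctsk per library. It is given as a description and is not read as a shared pattern.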

How the data were processed

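Raw gene-level counts of the 12 libraries, as the authors deposited them, were the input; they were made from stranded total RNA after ribosomal depletion. The methods name HISAT2 and HTSeq on the GENCODE annotation, and the submitters' processing notes name HISAT2, featureCounts and mm10; versions and strand setting are not given in the sources used here. Lines for no feature (20.2 to 27.3% of a library), ambiguous (0.428 to 0.513%) and non-unique reads (15.9 to 20.5%) stayed out of library sizes and tests. A pair of RNA kits are named without assignment to samples. Groups and replicate numbers came from the labels. Counts were filtered with filterByExpr (15220 genes), scaled by TMM and fitted with edgeR 4.0.16 in R 4.3.3 (glmQLFit and glmQLFTest, 1 model of 4 groups, no replicate block), with Benjamini-Hochberg adjustment over all genes tested in each of 5 comparisons and a threshold of 0.05. CPM and log2 fold changes were computed here from the deposited counts. Standard errors come from the fold change and its F statistic. Groups with no library over 3 counts of a gene were read as not detecting it, a floor for counting error only. Replicate pairs spread beyond counting noise (chi-square over its degrees of freedom 10.7 to 22). Gene lengths and positions came from GENCODE M21 (GRCm38), where all 10 cathepsin symbols were found. Members and lists were chosen with earlier results of these data known. Counts over genes at the filter's cutoff (10 counts at the median depth) in an untreated library were added after the values were seen. Named genes are the cathepsins, Tfeb and Tfe3, list members called with at least a 2-fold difference, and the 3 nearest patterns among genes averaging 10 CPM or more. Alternatives were DESeq2 1.42.0, limma-trend (limma 3.58.1, the study's test), DESeq2's size factors, library size alone, no filter, a stricter filter (mean of 1 CPM or more), the replicate block, only the groups compared, each library left out, and no Rn45s, Rmrp or Rpph1.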

Additional observations from a re-analysis of the deposited data

Results flagged for a closer look

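The etoposide response of 5 cathepsins differed between the genotypes by the interaction term of the edgeR quasi-likelihood test (Benjamini-Hochberg), given here as DKO minus Null MEFs on the log2 scale. For Ctsf the difference was -2.13 (adjusted p = 1.12e-09 by edgeR), for Ctsh -1.29 (adjusted p = 3.06e-05 by edgeR) and for Ctsd -0.94 (adjusted p = 3.22e-10 by edgeR). It was -0.34 for Ctsb (adjusted p = 1.16e-05 by edgeR) and -0.20 for Ctsz (adjusted p = 0.0028 by edgeR). On library size alone the Ctsz difference was -0.0895 and was not called. All 5 were below 0, as were 24.7% of all genes tested by the same call, with 29.9% above 0. Among the 13798 genes at the cutoff in an untreated library these shares were 26.4 and 32.8%. Groups held 3 libraries, too few for a rule on single libraries far from the rest, and the effect of leaving each out is given below.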

How the results depend on the processing

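Of 208 recomputed counts of called cathepsins, 197 stayed within 1.5 times the main value. These counts still include Ctsk, with which 7 were higher with etoposide in Null MEFs, so they are not the counts over 8 given above. Of 929 recomputed fold changes of the tested cathepsins, a tally that still includes Ctsk, 875 kept their direction and side of the threshold. Of 200 group levels 173 moved by less than 1 SD (27 moved further, 23 of them on library size alone), of 180 counts of list genes 160 stayed within 1.5 times, and the 4 shares of counts each moved by more than 1 SD without the abundant RNAs, to 0.117, 0.135, 0.197 and 0.167%. The counts of list genes in this tally still include Laptm5 and Ctse, which passed the filter through treated libraries. Library size alone moved the median of all genes from 0.067 to 0.234 with etoposide in Null MEFs, from 0.14 to 0.41 in DKO MEFs, from -0.022 to -0.14 for DKO against untreated Null MEFs and from 0.049 to 0.153 for the interaction. The share of calls that were higher went from 53.1 to 63.8%, from 58.5 to 75.9%, from 49.5 to 38.2% and from 54.8 to 65%. On that scale no cathepsin was called lower with etoposide (0 in Null and 0 in DKO MEFs) and 7 were called higher in DKO MEFs, against 28.6 and 19.5% of all genes lower and 61.4% higher. Without Ctsk the counts with etoposide in Null MEFs were 6 higher and 1 lower of 8, and on library size alone 6 and 0, against 50.3 and 28.6% of all genes. Ctsa then read 0.015 in Null and 0.13 in DKO MEFs, Ctsb 0.085 and Ctsz 0.25 in DKO MEFs, and the Ctsl interaction 0.032. The count lower in Null MEFs was 2 with no filter (26.9% of all genes) and 2 with only the groups compared (37.8%), 0 with the stricter filter (mean of 1 CPM or more; 40.2%), and 1 to 2 with each library left out. Ctsz in DKO MEFs read 0.0082 with the stricter filter. The Ctsa interaction read -0.056 with DESeq2, -0.056 with its size factors, -0.0048 with no filter, -0.043 with the stricter filter, -0.0096 without the abundant RNAs and -0.035 to 0.045 with each library left out. With each library left out, the count of interactions above 0 was 0 to 1, and ranges were -0.53 to 0.78 for Ctsc with etoposide in DKO MEFs, -0.24 to 1.06 for its interaction, -0.81 to 0.24 for Ctsk in untreated DKO against Null MEFs and -0.054 to 0.033 for Tfe3 after etoposide. The cause was not tested. Of 1053 recomputed fold changes of list genes 1045 kept direction and call. Ctsk and Ctss rest on too few counts for a firm level.

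No strong pairing of the libraries by replicate number was seen, and these values cannot decide on a weak one. Same-numbered libraries correlated at -0.032 to 0.0429 (median 0.0122) in their deviations from the group means. Libraries with different numbers correlated at -0.0471 to 0.0476 (median -0.00711), and 7 of 12 libraries matched best with their own number. Over the 8 cathepsins without Ctsk, the replicate block gave 6 higher and 1 lower with etoposide in Null MEFs (41.4 and 36.6% of all genes), 4 and 2 in DKO MEFs (43.6 and 31.2%; Ctsd called, log2 fold change 0.077), 6 and 2 for DKO against Null MEFs untreated (33.2 and 33.8%), 3 and 3 after etoposide (36.8 and 34.8%; Ctsh not called, -0.29) and 5 interactions below 0 (24.5%).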
